A study of Homo sapiens with 12 samples.

Results

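The comparison described here is the difference between 2 human lines of pancreatic cancer (BxPC-3 and AsPC-1) in how their mRNA levels changed after the phorbol ester PMA. It takes all 12 arrays of the series (12 of 12), which form 4 groups of 3: BxPC-3 untreated, BxPC-3 with PMA, AsPC-1 untreated and AsPC-1 with PMA. PMA was given at 1 µM for 4 h. All cells, treated and untreated, had first been kept overnight in low serum. For each gene the response of a line is the mean with PMA minus the mean without it, and the difference of response is the BxPC-3 response minus the AsPC-1 response. A positive difference therefore means that PMA moved the gene further up, or less far down, in BxPC-3.

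BxPC-3 was isolated from a primary tumour and AsPC-1 from ascites, so each stands for 1 tumour. The 3 arrays of a group came from 3 passages of the same line (7, 9 and 11 for BxPC-3, and 8, 10 and 12 for AsPC-1), and the spread between arrays is the spread between passages. The sources used here do not say which vehicle, if any, the untreated cells received. Both lines had the markers of their labelled cell type. All 9 epithelial and ductal markers were above the 40th percentile of signal on every array, and 8 of 9 fibroblast, 8 of 9 leukocyte and 7 of 7 endothelial markers never passed a signal of 100. The exceptions to the limit of 100 were LUM and LYZ, which were bright in AsPC-1 with and without PMA. These 2 thresholds differ. By the percentile rule 1 fibroblast, 2 leukocyte and 1 endothelial marker also passed on every array, and the lowest epithelial signal was 56.9.

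PMA is a stable mimic of diacylglycerol, the lipid messenger that recruits conventional and related protein kinase C enzymes to membranes. Active protein kinase C feeds into the ERK and NF-kB pathways and into AP-1, the FOS and JUN dimer that binds the phorbol ester response element in the promoters of genes such as collagenases and urokinase. In surface epithelia, phorbol esters are also known to start parts of the terminal differentiation programme, including genes of the cornified envelope.

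Values are MAS5 signals on a linear scale, and all differences and SEs are on the scale of log2(signal + 3), which understates the change of dim genes. Arrays of 1 passage stood apart. AsPC-1 PMA replicate 1 correlated at 0.921 with the other arrays of its group over all genes tested and at 0.964 with the array of untreated cells from the same passage, while the other 11 arrays lay between 0.945 and 0.978 with their own group. AsPC-1 untreated replicate 1, of the same passage, was the other array closer to its passage partner (0.964) than to its own group (0.95), and these 2 arrays had the lowest array weights in limma, 0.132 and 0.261. Values are given with all 12 arrays and in the fit without AsPC-1 PMA replicate 1, the reduced fit. For GAPDH the 3'/5' signal ratio lay between 0.987 and 1.12 on the 12 arrays. That of ACTB was 2.56, 2.95 and 4.14 in untreated BxPC-3 against 1.84, 1.99 and 2.02 with PMA, and 2.22, 2.27 and 2.24 in untreated AsPC-1 against 2.12, 2.32 and 1.79 with PMA. The ACTB ratio thus moved with PMA in BxPC-3, and its part in the results below was not tested.

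A gene is called where the adjusted p of the difference, from limma over 16099 genes, was under 0.05. With all 12 arrays, 79 genes were called, which is 0.491% of those tested. Of these, 51 had the higher response in BxPC-3 (0.317%) and 28 the lower (0.174%). All but SMURF1, at 0.99, differed at least 2-fold. The within-passage changes of the lines did not overlap for any of the 79, while 17.7% of all genes tested had non-overlapping changes. Without AsPC-1 PMA replicate 1, 713 genes were called (4.43%), 409 higher in BxPC-3 (2.54%) and 304 lower (1.89%). All 79 were among them with the same sign. The median SE of a difference was 0.46 with all 12 arrays and 0.40 without that array. With passage as a block, 126 genes were called (0.783%; 71 higher, 0.441%, and 55 lower, 0.342%), and 68 of the 79 were among them.

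**Figure D1:**
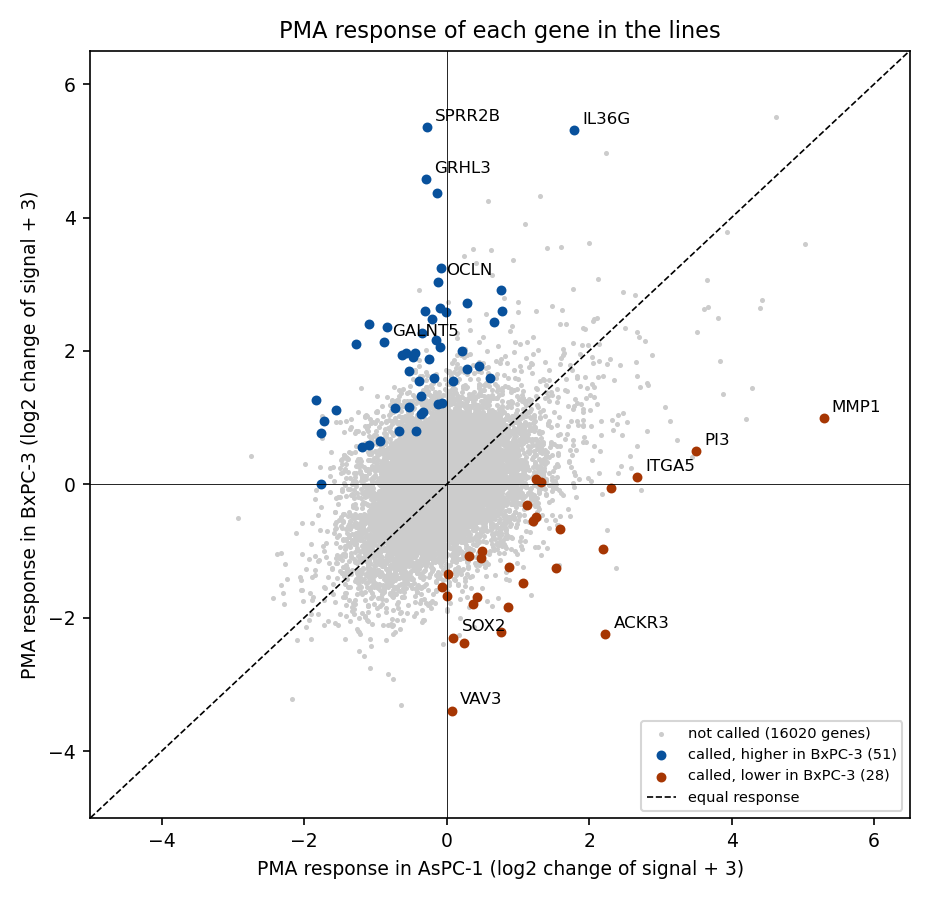
PMA response of each of 16099 genes in AsPC-1 (x axis) and BxPC-3 (y axis), each as the log2 change of signal + 3 over all 12 arrays, with called genes in blue (51, higher in BxPC-3) or red (28, lower in BxPC-3) and uncalled genes in grey. Genes on the dashed line responded equally; most blue points lie above 0 for BxPC-3 near 0 for AsPC-1, while MMP1, PI3 and ITGA5 lie far to the right at BxPC-3 responses of 0.10 to 0.99.

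The number of calls depended on single arrays in both lines. Leaving out 1 AsPC-1 array other than PMA replicate 1 gave 59, 14 and 43 calls for untreated replicates 1, 2 and 3, and 32 and 43 for PMA replicates 2 and 3. For BxPC-3 the counts were 9, 23 and 31 for the untreated arrays and 15, 19 and 9 for the PMA arrays. Every one of these fits also has fewer samples. Among the 30 called genes picked by the naming rule given with the processing, 7 stayed called in each of the alternatives in which they were tested: SPRR2B, MYRFL, OCLN, GALNT5, C1orf74, MN1 and ZNF18. The other 23 lost the call on leaving out at least 1 array, and 7 to 30 of the 30 held it depending on the array left out. None of the 30 changed sign. These counts do not cover ZNF750, SPRR1A, CLDN23, MARVELD2 and CXCL16, which were called and are described below but were added outside that rule.

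The calls were made up of few forms. For the responses of the single lines with all 12 arrays, 2.52% of genes rose and 3.3% fell in BxPC-3, and 1.24% rose and 0.721% fell in AsPC-1. Of the 51 genes with the higher response in BxPC-3, 40 rose in BxPC-3 and were not called in AsPC-1, 6 fell in AsPC-1 and were not called in BxPC-3, 2 had opposite calls, up in BxPC-3 and down in AsPC-1, 2 rose in both lines, and 1 was called in neither line. Of the 28 with the lower response, 16 were a fall in BxPC-3 and 11 a rise in AsPC-1, without a call in the other line, and 1 was called in neither. Without AsPC-1 PMA replicate 1, the weight lay on AsPC-1. Of the 409 higher genes, 188 fell in AsPC-1 and 112 rose in BxPC-3, without a call in the other line. Another 53 fell in both lines, 19 rose in both, 29 had opposite calls and 8 were called in neither. Of the 304 lower genes, 166 rose in AsPC-1 and 52 fell in BxPC-3, without a call in the other line. A further 54 rose in both lines, 29 had opposite calls and 3 were called in neither. In that fit 5.7% of genes rose and 9.17% fell in BxPC-3, and 6.09% rose and 13.5% fell in AsPC-1. Calls in both lines in opposite directions went from 2 to 58. By the fitted means, PMA turned the order of the lines for 37 of the 79 genes, widened the gap for 26 and narrowed it for 16. Any change of sign counts as turned. Among the turned genes, 11 higher and 4 lower in BxPC-3 had an untreated gap under 1, and that of LRRC4 was -0.002. These forms were not counted over all genes, and genes called for a difference are prone to turned or widened gaps.

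Genes of the stratified epithelial programme led the higher responses in BxPC-3. SPRR2B encodes a small proline-rich protein that is cross-linked into the cornified envelope. Its signal in BxPC-3 was 22.0, 23.9 and 13.9 in untreated replicates 1, 2 and 3 and 1053, 625 and 1161 with PMA. AsPC-1 had 8.16, 3.16 and 7.14 untreated and 8.16, 3.42 and 2.41 with PMA. Only the BxPC-3 PMA arrays were high, and both AsPC-1 groups lay under the array's 40th percentile throughout. The difference of response was 5.63 ± 0.52 (SE; adjusted p = 0.000417) and 5.94 without AsPC-1 PMA replicate 1. The probe set may also pick up close SPRR2 relatives, so the signal cannot be assigned to SPRR2B alone.

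GRHL3, a grainyhead transcription factor needed for the epidermal barrier, went from 2.77, 20.8 and 10.5 to 296, 321 and 257 in BxPC-3. On the AsPC-1 arrays it was at 11.4, 26.2 and 7.36 untreated and 15.4, 3.69 and 16.5 with PMA. Again only the BxPC-3 PMA arrays stood out, and the 2 AsPC-1 groups overlapped. Its difference was 4.86 ± 0.76 (adjusted p = 0.0165, 5.09 in the reduced fit). ZNF750, a regulator of late epidermal differentiation, rose by 2.47 in BxPC-3 against -0.20 in AsPC-1, a difference of 2.68 ± 0.52 (adjusted p = 0.0425, 2.45 in the reduced fit), and SPRR1A differed by 2.23 ± 0.42 (adjusted p = 0.0363, 2.40 in the reduced fit). KRT23, a type I keratin, was at 144, 178 and 283 in untreated BxPC-3 and 806, 1463 and 858 with PMA, and at 53.3, 33.7 and 70.2 in untreated AsPC-1 and 20.2, 43.4 and 21.6 with PMA. It rose in BxPC-3, while its AsPC-1 groups overlapped (difference 3.19 ± 0.51, adjusted p = 0.0172, 3.01 in the reduced fit).

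The list of cornified envelope and epidermal differentiation genes had 21 members tested. With all 12 arrays 4 of them were called, against 0.491% of all genes. All 4 had the higher response in BxPC-3 (SPRR2B, GRHL3, ZNF750 and SPRR1A). Without AsPC-1 PMA replicate 1, 8 were called, again all higher (38.1% of the list, against 4.43% of all genes). The median difference was 0.72, and 0.87 without that array, against 0.07 and 0.12 over all genes tested. Not every member was higher in BxPC-3. Of the 21, 7 had a negative difference (33.3%, against 44.4% of all genes). At an unadjusted p under 0.05 in limma, 9 were higher and 2 lower. Over all 16099 genes tested, 819 were higher and 615 lower at that threshold. The counts at this threshold for the lists below have the same background. IVL, which encodes involucrin, differed by -0.92 ± 0.52 (adjusted p = 0.666, -1.27 in the reduced fit), and TGM1, the transglutaminase that cross-links the envelope, by -0.12 ± 0.80 (adjusted p = 0.989, -0.07 in the reduced fit).

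Tight junction genes formed the next group. OCLN encodes occludin, a transmembrane protein of the tight junction. It was at 190, 183 and 226 in untreated BxPC-3 and at 1616, 1730 and 1622 with PMA. Its AsPC-1 signals were 718, 1135 and 1025 untreated and 601, 1007 and 1064 with PMA. Untreated BxPC-3 thus lay below every AsPC-1 array and BxPC-3 with PMA above all of them, so that PMA turned the order of the lines. The difference was 3.16 ± 0.32 (adjusted p = 0.000574, 2.90 in the reduced fit) and ranged from 2.75 to 3.36 over the alternatives. The other 3 probe sets for OCLN gave 4.41, 1.88 and 1.55.

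CLDN23, a claudin, rose by 2.26 in BxPC-3 and had -0.35 in AsPC-1, a difference of 2.61 ± 0.44 (adjusted p = 0.0228, 2.52 in the reduced fit). MARVELD2, which encodes tricellulin at the corners where 3 cells meet, differed by 1.47 ± 0.24 (adjusted p = 0.0172, 1.48 in the reduced fit). These 2 genes and OCLN were the called members among 23 epithelial junction genes tested, all higher in BxPC-3, against 0.491% of all genes. Leaving out AsPC-1 PMA replicate 1 gave 8 calls higher and 1 lower (39.1% of the list, against 4.43% of all genes). The median difference of the list was 0.49 with all 12 arrays, against 0.07 over all genes tested. Without that array it was 0.18, against 0.12. CDH1, which encodes E-cadherin, was called in neither fit. Its signal in BxPC-3 was 3064, 3834 and 3612 untreated and 4438, 4317 and 5091 with PMA, and in AsPC-1 691, 924 and 972 untreated and 473, 992 and 993 with PMA. The difference was 0.54 ± 0.34 (adjusted p = 0.712, 0.18 in the reduced fit), and a second, dimmer probe set gave 2.31.

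Claudins 3 and 4 reached the call in other fits. CLDN4 was at 80.5, 104 and 74.2 in untreated BxPC-3 and 1603, 2019 and 1710 with PMA. The AsPC-1 arrays had 323, 327 and 239 untreated and 187, 1235 and 1682 with PMA, so replicate 1 lay below the untreated arrays and the other PMA arrays far above them. The difference was 3.02 ± 0.80 with all 12 arrays (adjusted p = 0.185) and 2.04 ± 0.27 without AsPC-1 PMA replicate 1 (adjusted p = 0.000887). Without that array CLDN4 rose in both lines, by 4.32 in BxPC-3 and 2.28 in AsPC-1. With passage as a block CLDN4 was not called (adjusted p = 0.0909). CLDN3 differed by 3.31 ± 0.73 (adjusted p = 0.0819), by 3.08 without that array (adjusted p = 0.0341), and was called with passage as a block (adjusted p = 0.0496).

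OVOL1, a zinc finger repressor that keeps epithelial cells epithelial, behaved like CLDN4. It went from 135, 145 and 188 to 1564, 1537 and 2379 in BxPC-3, and from 48.4, 111 and 86.4 to 44.6, 199 and 197 in AsPC-1. The 3 BxPC-3 PMA arrays were far above all others. In the reduced fit OVOL1 also rose in AsPC-1, by 1.32 (adjusted p = 0.00565). Its difference was 2.88 ± 0.66 (adjusted p = 0.107), 2.19 ± 0.39 without AsPC-1 PMA replicate 1 (adjusted p = 0.00693), and was called with passage as a block (adjusted p = 0.00485). KLF4, a factor of epithelial differentiation that is also an immediate-early gene, differed by 1.74 ± 0.56 (adjusted p = 0.322) and by 1.11 without that array (adjusted p = 0.0342), and was called with the block (adjusted p = 0.0366).

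**Figure D2:**
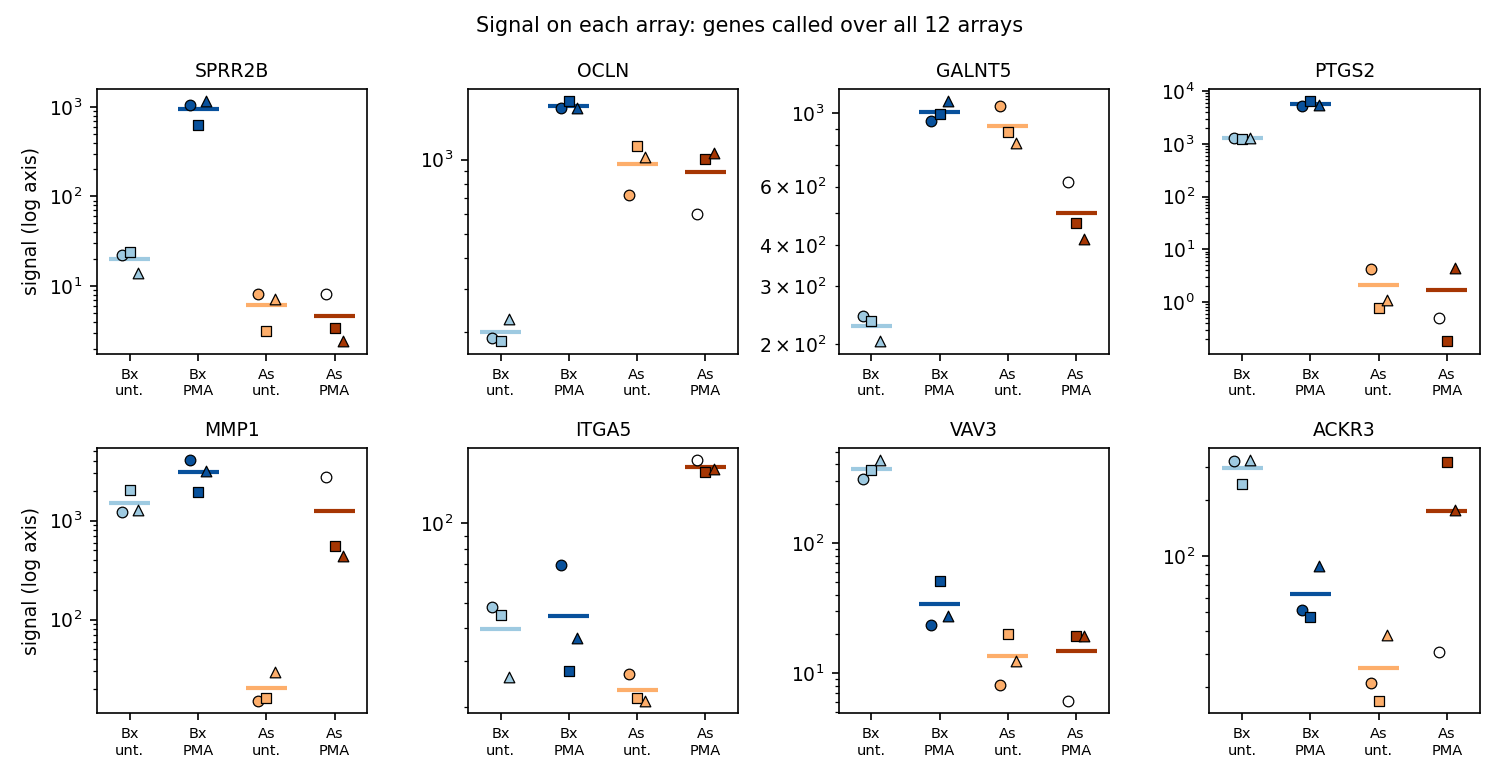
Signal on each array (log axis) for 8 genes called over all 12 arrays, in the 4 groups (Bx for BxPC-3, As for AsPC-1, unt. for untreated), with circles, squares and triangles for replicates 1, 2 and 3, a bar at the group mean and an open circle for AsPC-1 PMA replicate 1. SPRR2B, OCLN and PTGS2 were highest in BxPC-3 with PMA, GALNT5 moved in opposite directions, ITGA5 was highest in AsPC-1 with PMA, and VAV3 went down in BxPC-3 from far above the AsPC-1 arrays to just above them.

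Only 2 of the 79 genes were called in both lines in opposite directions. GALNT5 encodes an enzyme that starts mucin-type O-glycans. In BxPC-3 it was at 244, 235 and 204 untreated and 946, 993 and 1091 with PMA. For AsPC-1 the signals were 1054, 879 and 816 untreated and 620, 467 and 416 with PMA. PMA raised it on all 3 BxPC-3 passages and lowered it on all 3 AsPC-1 passages, and the groups of each line did not overlap. It rose by 2.14 (adjusted p = 3.04e-05) and fell by 0.88 (adjusted p = 0.0262), a difference of 3.02 ± 0.25 (adjusted p = 0.000236, 3.18 in the reduced fit). Its 4 other probe sets gave 2.04, 3.09, 4.53 and 3.94. TPSG1, a tryptase, went from 4.72, 6.35 and 6.79 to 18.3, 13.0 and 25.3 in BxPC-3 and from 20, 25.2 and 22.0 to 2.30, 5.31 and 5.10 in AsPC-1. Its levels crossed in the same way, all at low signal (difference 3.09 ± 0.48, adjusted p = 0.0165, 2.88 in the reduced fit).

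Secreted signalling proteins and their enzymes also differed. IL36G, an interleukin-1 family cytokine of epithelial cells, was 1 of the 2 genes that rose in both lines and were called higher in BxPC-3. It went from 6.82, 8.41 and 6.42 to 474, 269 and 506 in BxPC-3 and from 9, 7.82 and 3.47 to 17.2, 30.3 and 48.4 in AsPC-1. Within each line every PMA array was above every untreated one. The responses were 5.31 and 1.79, and the difference was 3.52 ± 0.53 (adjusted p = 0.0165, 3.18 in the reduced fit). CXCL16, a membrane-bound chemokine, differed by 1.77 ± 0.33 (adjusted p = 0.0342, 1.76 in the reduced fit).

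PTGS2 encodes cyclooxygenase-2, the inducible enzyme of prostaglandin synthesis. It was at 1261, 1234 and 1298 in untreated BxPC-3 and 5125, 6470 and 5515 with PMA. On the 6 AsPC-1 arrays it never passed 4.34, and all 6 were under the array's 40th percentile. Its difference of 2.32 ± 0.45 (adjusted p = 0.043, 2.17 in the reduced fit) therefore sets a rise in BxPC-3 against a line in which the gene stayed at the floor of the arrays. A second probe set gave 3.65. FST encodes follistatin, which binds activin. It was at 2094, 2512 and 1361 in untreated BxPC-3 and 6900, 7466 and 6971 with PMA, and between 14 and 34.1 on all AsPC-1 arrays. The BxPC-3 groups were well apart and the AsPC-1 groups overlapped (difference 2.13 ± 0.40, adjusted p = 0.0363, 1.80 in the reduced fit). Its other probe sets gave 2.20 and 0.91.

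A line this dim was more common among called genes than among all genes tested. Of the 79 called genes, 8 had all 6 AsPC-1 arrays under the 40th percentile (SPRR2B, HMGN2P46, ZNF750, LRRC4, PTGS2, RASSF9, SHISA3 and SOX2) and 0 had all 6 BxPC-3 arrays there. That is 10.1% of the called genes, against 4.57% of all genes tested (361 for AsPC-1 and 374 for BxPC-3, of 16099). For these 8 the AsPC-1 response is that of a gene near the floor. Of the 79, 5 never passed a signal of 50 on any array, LRRC4 among them, against 5382 of the 16099 genes tested.

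The remaining leading genes with the higher response in BxPC-3 share no single role. MYRFL, a relative of the myelin regulatory factor, was at 0.825, 0.885 and 1.49 in untreated BxPC-3 and 88.6, 75.4 and 78.4 with PMA. The AsPC-1 signals were 18.8, 20.1 and 15.2 untreated and 8.33, 15.4 and 30.4 with PMA. All BxPC-3 PMA arrays were above all AsPC-1 arrays, which overlapped between treatments. The difference was 4.50 ± 0.51 (adjusted p = 0.00212, 4.12 in the reduced fit), but its size depends on the pseudocount, as the range of 1.37 to 5.48 over the alternatives shows. C1orf74 went from 43.2, 50.4 and 40.8 to 312, 235 and 322 in BxPC-3 and was at 20.4 to 36.7 on the AsPC-1 arrays (difference 2.90 ± 0.35, adjusted p = 0.00342, 2.83 in the reduced fit). A second probe set for it gave 2.86.

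LURAP1L went from 25.7, 24.3 and 26.6 to 120, 196 and 139 in BxPC-3, and from 39.6, 29.2 and 34.5 to 37.6, 7.16 and 9.86 in AsPC-1. AsPC-1 PMA replicate 1 stayed at the untreated level, unlike replicates 2 and 3. The difference was 3.50 ± 0.59 (adjusted p = 0.0228) with all 12 arrays. Without that array it was 4.11 ± 0.37, and LURAP1L also fell by 1.70 in AsPC-1 (adjusted p = 0.000634). NCF1, a subunit of the phagocyte NADPH oxidase, had low signals, with 1.64, 2.01 and 2.56 against 21.0, 19.0 and 16.6 with PMA in BxPC-3 and 9.14, 16.1 and 5.70 against 1.90, 1.39 and 3.68 in AsPC-1. Its difference was 3.38 ± 0.55 (adjusted p = 0.0172, 3.33 in the reduced fit), and the probe set may also pick up its near-identical pseudogenes. HMGN2P46, a transcript named as an HMGN2 pseudogene and so liable to the same, differed by 3.32 ± 0.60 (adjusted p = 0.0316, and 0.0528 with passage as a block), and by 3.07 in the reduced fit.

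MARCKSL1 encodes a relative of MARCKS, the actin-binding substrate of protein kinase C. It was at 92.0, 114 and 99.3 in untreated BxPC-3 and 675, 669 and 531 with PMA, and at 1157, 550 and 541 against 978, 594 and 583 in AsPC-1. PMA brought BxPC-3 up to the lower AsPC-1 values, where treated and untreated arrays overlapped (difference 2.59 ± 0.40, adjusted p = 0.0165, 2.83 in the reduced fit). It was the 1 member called among 13 protein kinase C and D genes and substrates tested, against 0.491% of all genes. The enzymes themselves gave no call. PRKCA differed by 0.47 ± 0.44 (adjusted p = 0.836, 0.70 in the reduced fit) and PRKCD by -0.01 ± 0.50 (adjusted p = 1, -0.09 in the reduced fit).

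ST14 and PMAIP1 were also called. ST14 encodes matriptase, a membrane serine protease of epithelia, and went from 112, 132 and 111 to 439, 447 and 495 in BxPC-3. AsPC-1 had 473, 375 and 349 untreated and 129, 378 and 335 with PMA, the low value being replicate 1. The difference was 2.57 ± 0.45 (adjusted p = 0.0262) with all 12 arrays and 2.09 ± 0.22 without that one (adjusted p = 0.000226), and the other probe sets gave 1.85 and, for one near the floor, -0.15. PMAIP1 encodes NOXA, a BH3-only protein that promotes apoptosis. It went from 345, 316 and 336 to 1019, 1278 and 1142 in BxPC-3 and from 575, 560 and 556 to 596, 828 and 940 in AsPC-1. No array overlapped between treatments in either line, but the BxPC-3 change was larger (difference 1.32 ± 0.24, adjusted p = 0.0344, 1.13 in the reduced fit).

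**Figure D3:**
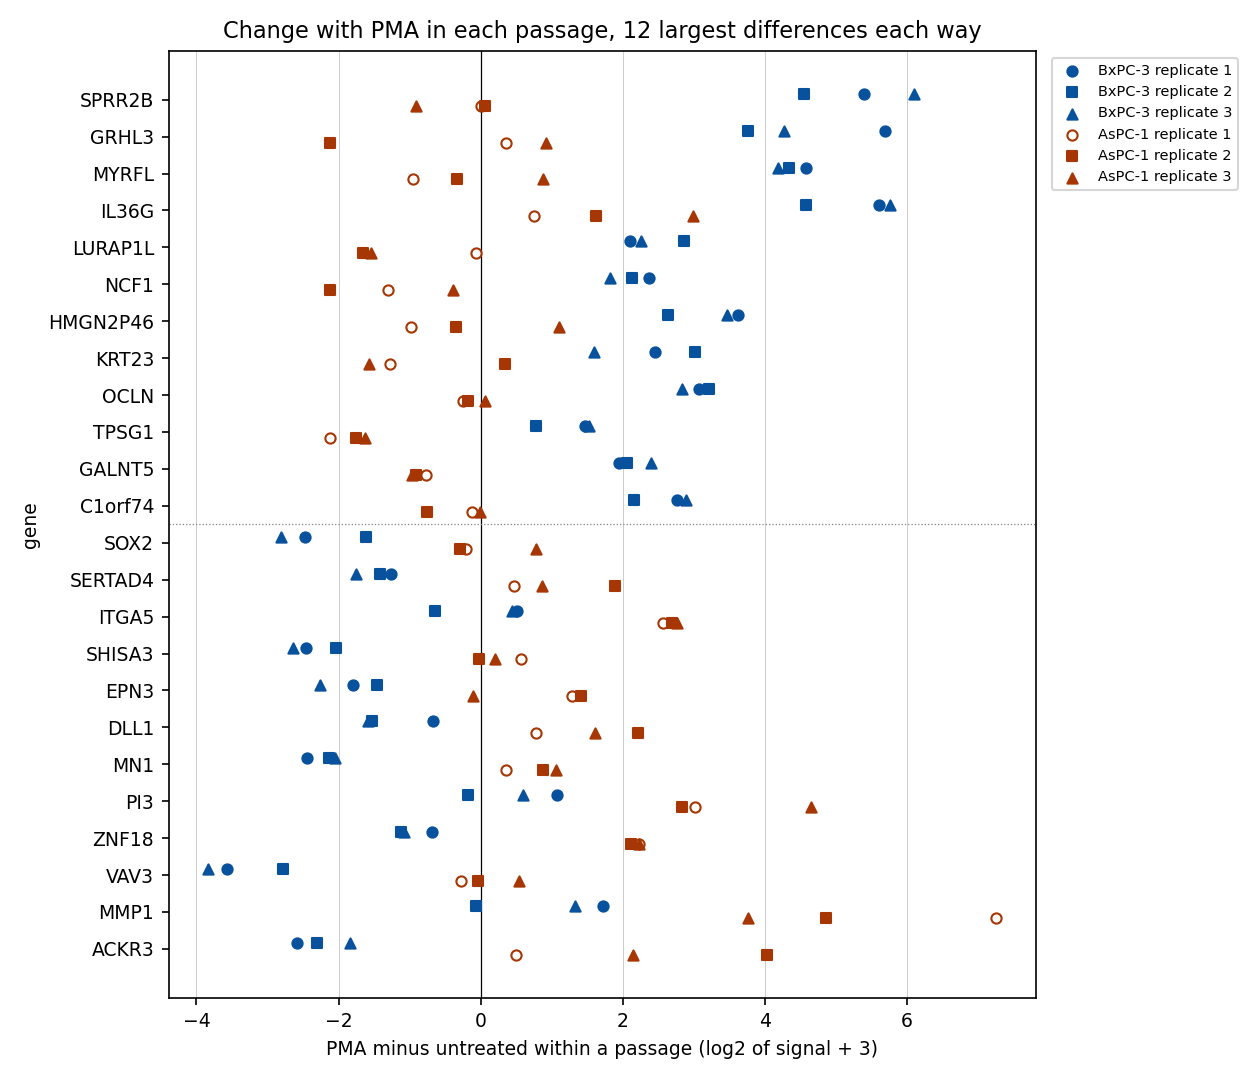
PMA minus untreated within each passage (x axis, log2 of signal + 3) for the 12 genes with the largest called differences each way, blue for BxPC-3 and red for AsPC-1, with circles, squares and triangles for replicates 1, 2 and 3 and open circles for AsPC-1 replicate 1. For each gene the blue and red points do not overlap, and for MMP1 the AsPC-1 replicate 1 point lies furthest to the right.

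Proteases that cleave matrix went both ways. MMP1 encodes interstitial collagenase, the classical phorbol ester target. In BxPC-3 it was at 1234, 2055 and 1266 untreated and 4072, 1966 and 3179 with PMA. On the AsPC-1 arrays it was at 15.1, 16.1 and 29.5 untreated and 2769, 550 and 436 with PMA. All AsPC-1 PMA arrays were far above the untreated ones, most of all replicate 1, while BxPC-3 was high from the start and its groups overlapped. MMP1 rose by 5.29 in AsPC-1 (adjusted p = 0.000633) and by a value that was not called in BxPC-3, 0.99 (adjusted p = 0.328). In the reduced fit the same BxPC-3 response was called (adjusted p = 0.0319). The difference was -4.30 ± 0.77 (adjusted p = 0.0304), and -3.46 ± 0.43 without AsPC-1 PMA replicate 1.

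MMP7 encodes matrilysin, a matrix metalloproteinase of glandular epithelia, and had the opposite sign. It went from 106, 96.9 and 103 to 156, 274 and 244 in BxPC-3 and from 5226, 4713 and 4686 to 3241, 4231 and 4251 in AsPC-1. It rose in BxPC-3 (1.08, adjusted p = 0.00648), stayed far below its AsPC-1 level, and had -0.33 in AsPC-1 (adjusted p = 0.439), a difference of 1.41 ± 0.28 (adjusted p = 0.043, 1.28 in the reduced fit). MMP10, stromelysin-2, was called in neither fit, with -2.53 ± 1.04 over all 12 arrays (adjusted p = 0.497, -1.40 in the reduced fit). AsPC-1 PMA replicate 1 was high for it too, at 489 against 39.6 and 48.3. Of 23 metalloproteinases and inhibitors tested, MMP1 and MMP7 were the called ones, against 0.491% of all genes, and in the reduced fit ADAM17 was called as well (13% of the list, against 4.43%). The median difference was -0.04, and 0.23 in the reduced fit.

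In the plasminogen system the urokinase receptor and its ligand both rose in both lines, and their differences of response had opposite signs. PLAUR, the receptor, went from 174, 232 and 132 to 5675, 5358 and 5591 in BxPC-3. In AsPC-1 it went from 668, 447 and 491 to 881, 4290 and 4144, with replicate 1 close to the untreated arrays. The PLAUR responses were 4.96 and 2.24, and its difference was 2.72 ± 0.64 (adjusted p = 0.115) with all 12 arrays and 1.97 ± 0.28 without AsPC-1 PMA replicate 1 (adjusted p = 0.00154). PLAU, which encodes urokinase, went from 742, 899 and 589 to 4556, 4406 and 4736 in BxPC-3 and from 275, 224 and 389 to 1506, 5674 and 5356 in AsPC-1. Its responses were 2.63 and 3.62. The difference was -0.98 ± 0.55 (adjusted p = 0.666) and -1.61 ± 0.28 without that array (adjusted p = 0.00541).

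Also on that list was PI3, which encodes elafin, an inhibitor of neutrophil elastase. Its AsPC-1 signals were 30.1, 22.7 and 11.7 untreated and 265, 181 and 364 with PMA, and in BxPC-3 at 81.7, 136 and 71.4 against 176, 121 and 110. It rose in AsPC-1, where the groups were far apart, and its BxPC-3 groups overlapped (difference -3.0 ± 0.51, adjusted p = 0.0228, -2.98 in the reduced fit). A second probe set gave -2.59. The list of the plasminogen system had 17 members tested and also held other proteases and inhibitors, such as matriptase and elafin. With all 12 arrays its called members were ST14 and PI3, against 0.491% of all genes, and PLAU and PLAUR were not called. Without AsPC-1 PMA replicate 1, 3 were called higher and 2 lower (29.4% of the list, against 4.43% of all genes).

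ITGA5 encodes the alpha chain of the fibronectin receptor. The AsPC-1 arrays had 26.7, 21.8 and 21.2 untreated and 174, 157 and 161 with PMA, and in BxPC-3 at 48.0, 45.0 and 26.1 untreated and 69.5, 27.6 and 36.7 with PMA. It rose in AsPC-1, replicate 1 included, by 2.67 (adjusted p = 0.00132), and had 0.10 in BxPC-3, a difference of -2.57 ± 0.45 (adjusted p = 0.0278, -2.53 in the reduced fit). It was the 1 call among 19 integrin, laminin and hyaluronan genes tested with all 12 arrays, against 0.491% of all genes. Without AsPC-1 PMA replicate 1 there were 4 calls lower in BxPC-3 and 1 higher (26.3% of the list, against 4.43%). LAMB3, a chain of laminin-332, rose in both lines, by 1.45 and 2.72, and differed by -1.27 ± 0.35 (adjusted p = 0.201) and by -1.59 without that array (adjusted p = 0.0018). SDC1, the proteoglycan syndecan-1, fell in BxPC-3 by 0.71 and had 0.56 in AsPC-1, a difference of -1.27 ± 0.27 (adjusted p = 0.0738, and 0.0237 without that array and 0.031 with passage as a block).

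With all 12 arrays, 16 of the 28 genes with the lower response fell in BxPC-3 without a call in AsPC-1. In the reduced fit 52 of the 304 lower genes did so, and 166 rose in AsPC-1 without a call in BxPC-3. VAV3 was at 310, 366 and 431 in untreated BxPC-3 and 23.5, 50.7 and 27.4 with PMA. For AsPC-1 the signals were 8.11, 19.9 and 12.5 untreated and 6.15, 19.3 and 19.4 with PMA. PMA thus took BxPC-3 down towards the AsPC-1 level, where the treatments overlapped. VAV3 fell by 3.39 in BxPC-3 (adjusted p = 0.000457), and the difference was -3.46 ± 0.57 (adjusted p = 0.0186, -3.89 in the reduced fit), with -2.96 and -4.18 from the other probe sets.

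SOX2 encodes a stem cell transcription factor. It was at 337, 344 and 400 in untreated BxPC-3 and at 58.1, 111 and 54.5 with PMA, while no AsPC-1 array passed 6.39. It fell in BxPC-3 while AsPC-1 stayed at the floor (difference -2.39 ± 0.44, adjusted p = 0.0342, -2.47 in the reduced fit), and its 3 dimmer probe sets gave -0.87, -1.69 and -0.59. SHISA3, a Wnt and FGF antagonist, had the same form, with 340, 256 and 326 against 59.0, 60.4 and 49.5 with PMA in BxPC-3 and at most 4.84 in AsPC-1 (difference -2.63 ± 0.45, adjusted p = 0.0256, -2.56 in the reduced fit). EPN3, an epsin of endocytosis, was at 104, 92.2 and 128 against 27.8, 31.6 and 24.3 in BxPC-3 and at 0.634, 2.20 and 2.53 against 5.82, 10.8 and 2.14 in AsPC-1. It fell in BxPC-3 by 1.84 and had 0.86 in AsPC-1 (adjusted p = 0.255). Its difference was -2.70 ± 0.52 (adjusted p = 0.0391, and 0.0512 with passage as a block), and -2.68 in the reduced fit. SERTAD4 was at 122, 170 and 172 against 49.4, 61.6 and 48.8 in BxPC-3 and at 2.44, 0.680 and 3.51 against 4.51, 10.6 and 8.80 in AsPC-1. Its responses were -1.48 and 1.07, of which the AsPC-1 one was called in the reduced fit and not with all 12 arrays (difference -2.55 ± 0.45, adjusted p = 0.0292, -2.80 in the reduced fit), and its other probe sets gave -1.91, -2.73 and, for the dimmest, -0.22.

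MN1, a transcriptional coregulator first known from meningioma, fell in BxPC-3 from 86.8, 103 and 95.2 to 13.6, 21.0 and 20.6. The AsPC-1 signals were 101, 56.1 and 53.3 untreated and 130, 105 and 114 with PMA, where every PMA array was the higher one but the change was not called. The lines started at similar levels and ended apart (difference -2.97 ± 0.38, adjusted p = 0.00563, -2.89 in the reduced fit). ZNF18, a zinc finger protein, rose in AsPC-1 from 0.788, 0.632 and 1.87 to 14.8, 12.7 and 19.8. In BxPC-3 it was at 44.6, 57.2 and 62.0 untreated and 26.6, 24.6 and 27.6 with PMA. The gap between the lines narrowed from both sides (difference -3.15 ± 0.41, adjusted p = 0.00563, -3.18 in the reduced fit). These signals are dim, and the difference ranged from -4.04 to -0.81 over the alternatives.

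ACKR3, a scavenging receptor for the chemokine CXCL12, had the largest negative difference. In BxPC-3 it was at 325, 246 and 328 untreated and 51.8, 47.2 and 89.2 with PMA. AsPC-1 had 20.9, 16.8 and 37.9 untreated and 30.8, 320 and 178 with PMA, with replicate 1 inside the untreated range. It fell in BxPC-3 by 2.24 (adjusted p = 0.0488), and its difference was -4.47 ± 0.87 (adjusted p = 0.0421) with all 12 arrays. Without AsPC-1 PMA replicate 1 it was -5.42 ± 0.47, and ACKR3 also rose by 3.17 in AsPC-1 (adjusted p = 3.43e-05). Its 2 other probe sets, both dim, gave -0.01 and 0.14. DLL1, a Notch ligand, was at 83.9, 110 and 85.4 against 51.7, 36.1 and 26.5 with PMA in BxPC-3 and at 0.311, 0.787 and 0.841 against 2.69, 14.6 and 8.69 in AsPC-1. It was called for the difference (-2.79 ± 0.56, adjusted p = 0.0476, -3.24 in the reduced fit) and, with all 12 arrays, in neither line alone. In the reduced fit both lines were called, with responses of -1.26 in BxPC-3 (adjusted p = 0.015) and 1.98 in AsPC-1 (adjusted p = 0.00121). The dimmer probe set of DLL1 gave -0.01.

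Promoter sequence is shown for 4 of the called genes because PMA acts in part through AP-1. The window runs from 250 bases before to 50 after the annotated start, from RefSeq (GRCh38.p14), and the motif searched was TGAGTCA on both strands (TGACTCA on the other). A window was found for 58 of the 79 genes and for 12736 of the 16099. The motif was in 4 of 40 windows of genes called higher in BxPC-3 (10%), in 4 of 18 of those called lower (22.2%) and in 3.46% of all windows. In the 713 genes called without AsPC-1 PMA replicate 1 it was in 5.2% of the higher and 6.48% of the lower. Each sequence below is read 5′ to 3′ on the gene's own strand, with the motif in capitals. In SPRR1A (chr1:152983831-152984130, plus strand) it begins at -108 and in MMP7 (chr11:102530698-102530997, minus strand) at -67, both higher in BxPC-3. In ITGA5 (chr12:54419217-54419516, minus strand) it begins at -6 and in VAV3 (chr1:107688450-107688749, minus strand) at -116, both lower in BxPC-3.
SPRR1A: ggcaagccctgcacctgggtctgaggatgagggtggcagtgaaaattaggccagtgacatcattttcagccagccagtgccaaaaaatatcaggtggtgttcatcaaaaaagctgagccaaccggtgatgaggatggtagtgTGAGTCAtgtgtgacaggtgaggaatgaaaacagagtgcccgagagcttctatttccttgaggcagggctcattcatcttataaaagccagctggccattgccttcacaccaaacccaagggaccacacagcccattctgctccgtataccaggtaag
MMP7: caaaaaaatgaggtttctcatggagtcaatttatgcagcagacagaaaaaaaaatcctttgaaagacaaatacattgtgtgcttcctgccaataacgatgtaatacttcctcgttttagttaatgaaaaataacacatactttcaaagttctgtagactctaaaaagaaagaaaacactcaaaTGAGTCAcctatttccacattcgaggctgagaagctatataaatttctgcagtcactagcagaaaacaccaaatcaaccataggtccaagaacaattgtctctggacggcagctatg
ITGA5: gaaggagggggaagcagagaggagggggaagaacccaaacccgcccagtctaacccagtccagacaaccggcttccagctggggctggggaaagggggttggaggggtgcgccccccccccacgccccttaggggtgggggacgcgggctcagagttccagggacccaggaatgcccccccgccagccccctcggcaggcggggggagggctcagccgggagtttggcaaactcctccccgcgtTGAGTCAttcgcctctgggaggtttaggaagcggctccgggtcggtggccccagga
VAV3: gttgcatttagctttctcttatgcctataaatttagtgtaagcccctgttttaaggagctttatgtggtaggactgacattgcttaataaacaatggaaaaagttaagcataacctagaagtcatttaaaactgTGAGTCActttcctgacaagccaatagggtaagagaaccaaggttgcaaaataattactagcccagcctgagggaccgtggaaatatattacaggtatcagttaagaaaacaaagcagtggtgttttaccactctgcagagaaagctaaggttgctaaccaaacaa
The motif thus stood in windows of genes that rose in BxPC-3 (SPRR1A and MMP7), rose in AsPC-1 (ITGA5) and fell in BxPC-3 (VAV3). A match describes these letters and does not show that AP-1 binds there. The other 4 called genes with the motif were AIM2 and SGPP2, called higher, and SERPINB13 and NHLH2, called lower.

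Calls among inflammatory genes changed with AsPC-1 PMA replicate 1. CXCL2, a neutrophil chemokine, went from 36.4, 27.9 and 54.7 to 65.8, 2397 and 3115 in AsPC-1 and from 61.0, 41.7 and 39.2 to 126, 128 and 141 in BxPC-3. Its difference was -2.84 ± 1.42 with all 12 arrays (adjusted p = 0.608) and -4.61 ± 0.35 without AsPC-1 PMA replicate 1 (adjusted p = 2.7e-05). CXCL3, a close relative, went from 13.4, 28 and 17.7 to 36.3, 1110 and 1510 in AsPC-1 and from 13.7, 13.3 and 11.3 to 22.4, 28 and 34.8 in BxPC-3. Replicates 2 and 3 of AsPC-1 with PMA were the high arrays for both chemokines, and replicate 1 was near the untreated ones. The CXCL3 difference was -3.23 ± 1.36 (adjusted p = 0.51) and -4.91 ± 0.41 without that array (adjusted p = 2.7e-05). CXCL2 and CXCL3 are close in sequence, and cross-hybridisation between them was not tested.

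ICAM1, an adhesion receptor for leukocytes and an NF-kB target, went from 18.4, 27.2 and 23.7 to 23.5, 553 and 786 in AsPC-1 and from 74.5, 74.7 and 46.9 to 133, 154 and 99.1 in BxPC-3. It had the same form, with a difference of -2.18 ± 1.25 (adjusted p = 0.674) and -3.73 ± 0.37 without AsPC-1 PMA replicate 1 (adjusted p = 0.0001). CXCL8, which encodes interleukin-8, went from 373, 258 and 261 to 3427, 3800 and 3583 in BxPC-3 and from 29.8, 70.9 and 96.8 to 181, 6610 and 6974 in AsPC-1. It was high with PMA on all BxPC-3 arrays and on AsPC-1 replicates 2 and 3, but started lower in AsPC-1. On AsPC-1 PMA replicate 1, at 181, CXCL8 was below every untreated BxPC-3 array. The difference was -1.43 ± 1.41 (adjusted p = 0.852) and -3.16 ± 0.45 without that array (adjusted p = 0.00154). IL1A, interleukin-1 alpha, rose in both lines, by 2.64 and 4.40, and differed by -1.76 ± 0.87 (adjusted p = 0.603) and by -2.72 ± 0.47 without that array (adjusted p = 0.00573).

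Of 24 cytokines and chemokines tested, 2 were called with all 12 arrays, against 0.491% of all genes (IL36G and CXCL16, both higher in BxPC-3). In the fit without AsPC-1 PMA replicate 1, 2 were called higher and 6 lower (33.3% of the list, against 4.43% of all genes). The median difference went from -0.21 to -0.64. Of 17 NF-kB targets and feedback inhibitors, limma called 0 with all 12 arrays (2 higher and 2 lower at an unadjusted p under 0.05), and without that array it called 1 higher and 6 lower, 41.2% of the list against 4.43% of all genes. Their median went from -0.38 to -0.95. NFKBIZ, a nuclear IkB protein, was the 1 called higher, with 1.48 ± 0.43 (adjusted p = 0.258) and 1.03 without that array (adjusted p = 0.0324).

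**Figure D4:**
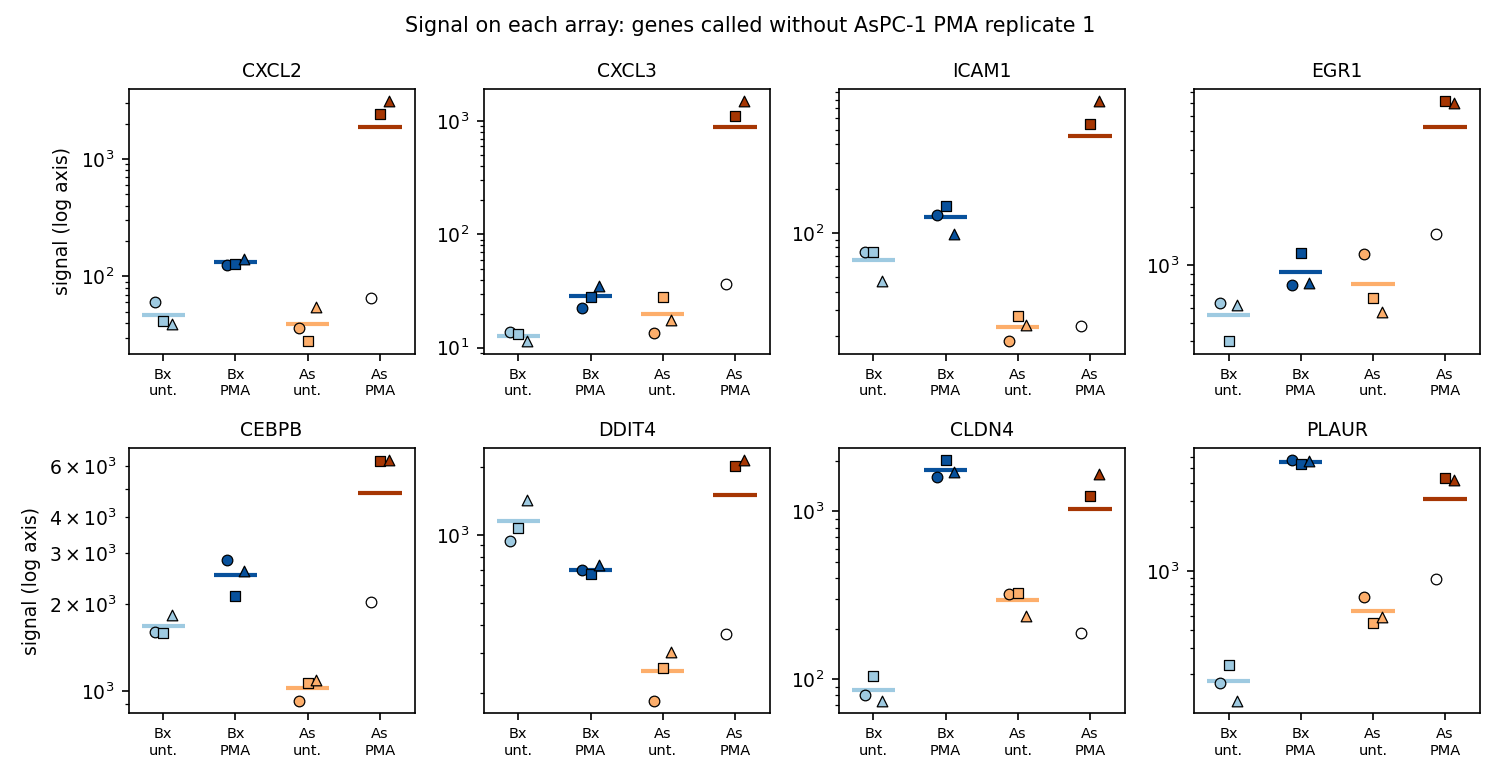
Signal on each array (log axis) for 8 genes called without AsPC-1 PMA replicate 1 and not with all 12 arrays, with groups and symbols as in the plot of called genes (circles, squares and triangles for replicates 1, 2 and 3; bars at the mean of 3 arrays). The open circle, AsPC-1 PMA replicate 1, lies near or below the untreated AsPC-1 arrays for CXCL2, CXCL3, ICAM1, CLDN4 and PLAUR, and between untreated and PMA for CEBPB and DDIT4.

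The immediate-early transcription factors, which cells switch on within minutes to hours of a stimulus without new protein synthesis, gave a like picture. With all 12 arrays limma called 0 of 26 (3 higher and 4 lower at an unadjusted p under 0.05). Without AsPC-1 PMA replicate 1 it called 13, 2 higher and 11 lower in BxPC-3, which is 50% of the list, against 4.43% of all genes. Their median difference went from -0.36 to -0.82. EGR1 was at 636, 399 and 621 in untreated BxPC-3 and 789, 1150 and 804 with PMA, and at 1140, 674 and 570 against 1458, 7160 and 7028 in AsPC-1. Replicates 2 and 3 of AsPC-1 with PMA were the highest arrays by far. The difference was -1.72 ± 0.69 (adjusted p = 0.477) and -2.48 ± 0.37 without replicate 1 (adjusted p = 0.0018).

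FOSB, a partner of JUN in AP-1, went from 22.0, 1.93 and 2.68 to 12.6, 318 and 410 in AsPC-1 and from 49.7, 37.7 and 22.6 to 124, 142 and 137 in BxPC-3. Its difference was -1.99 ± 1.36 (adjusted p = 0.734) and -3.50 ± 0.73 without AsPC-1 PMA replicate 1 (adjusted p = 0.0157). FOS, JUN, JUNB and ATF3 had -2.46, -1.88, -1.81 and -2.12 without that array and were all called there, with adjusted p of 0.0106, 0.00307, 0.00486 and 0.0109. With all 12 arrays they had -1.40, -0.99, -1.01 and -0.63 and were not called. The 2 members called higher were KLF4 and NR4A2. NR4A2, an orphan nuclear receptor, had 1.66 with all 12 arrays (adjusted p = 0.148) and 1.70 without that one (adjusted p = 0.0407).

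DUSP1, the phosphatase that switches MAP kinases off, went from 113, 126 and 93.8 to 530, 554 and 561 in BxPC-3 and from 226, 386 and 317 to 1022, 6257 and 6562 in AsPC-1. It rose in both lines, by 2.28 and 3.51, and the difference was -1.22 ± 0.73 (adjusted p = 0.689) and -2.11 ± 0.26 without AsPC-1 PMA replicate 1 (adjusted p = 0.000622). Of 22 ERK and protein kinase C feedback genes, limma called 0 with all 12 arrays. At an unadjusted p under 0.05, 2 of the 22 passed, both higher, against 1434 of all 16099 genes. Without that array limma called 2, DUSP1 and SPRY2, both lower in BxPC-3 (9.09% of the list called, against 4.43% of all genes). CDKN1A, the cell cycle inhibitor p21, was called in neither fit. It rose in both lines, from 281, 328 and 246 to 2491, 2339 and 2342 in BxPC-3 and from 45.1, 239 and 194 to 613, 2660 and 2809 in AsPC-1, with a difference of -0.59 ± 0.82 (adjusted p = 0.906) and -1.31 ± 0.63 without that array (adjusted p = 0.284).

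Genes of the stress and metabolic lists differed among themselves. CEBPB, a transcription factor of stress and inflammation, went from 1599, 1586 and 1833 to 2836, 2123 and 2592 in BxPC-3 and from 924, 1068 and 1088 to 2027, 6261 and 6285 in AsPC-1. No array overlapped between treatments in either line. The difference was -1.49 ± 0.46 (adjusted p = 0.294) and -2.03 ± 0.19 without AsPC-1 PMA replicate 1 (adjusted p = 4.75e-05). DDIT4 encodes REDD1, an inhibitor of mTORC1. It was at 936, 1071 and 1432 in untreated BxPC-3 and 697, 672 and 734 with PMA, and at 184, 256 and 304 against 364, 2014 and 2142 in AsPC-1. All BxPC-3 values were lower with PMA and all AsPC-1 values higher. The difference was -2.93 ± 0.70 (adjusted p = 0.122), -3.77 ± 0.28 without that array (adjusted p = 2.59e-05), and was called with passage as a block (adjusted p = 0.0223).

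PFKFB3, an enzyme that drives glycolysis, went from 335, 193 and 275 to 203, 2813 and 2699 in AsPC-1 and was at 158 to 266 on all BxPC-3 arrays. AsPC-1 PMA replicates 2 and 3 were the high arrays. Its difference was -1.97 ± 1.03 (adjusted p = 0.625) and -3.22 ± 0.34 without replicate 1 (adjusted p = 0.000206). DDIT4 and PFKFB3 are on the list of hypoxia and glycolysis genes, where 11 of 17 differences were positive, with a median of 0.14 (0.04 in the reduced fit). limma called 0 of the 17 with all 12 arrays (1 higher and 1 lower at an unadjusted p under 0.05, against 819 and 615 of all 16099 genes). In the reduced fit it called 1 higher and 3 lower (23.5% of the list, against 4.43% of all genes). Of 20 unfolded-protein and amino-acid stress genes, limma called 0 with all 12 arrays (4 at an unadjusted p under 0.05, all lower). Without AsPC-1 PMA replicate 1 it called 4, all lower (CEBPB, SLC7A5, SLC7A11 and TRIB3), 20% of the list against 4.43% of all genes. Of 14 sterol synthesis genes, limma called 0 with all 12 arrays (0 at an unadjusted p under 0.05), and 13 had a negative difference (92.9%, against 44.4% of all genes), with a median of -0.39. INSIG1, the sterol sensor that holds SCAP in the endoplasmic reticulum, was the 1 called without AsPC-1 PMA replicate 1, at -3.04 ± 0.58 (adjusted p = 0.0103). That is 7.14% of the list, against 4.43% of all genes.

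Proliferation genes leaned the other way. Of 30 tested, limma called 0 with all 12 arrays (7 at an unadjusted p under 0.05, all higher). Without AsPC-1 PMA replicate 1 it called 7, all with the higher response in BxPC-3 (23.3%, against 4.43% of all genes). Of the 30, 27 had a positive difference (90%, against 55.6% of all genes). The median response was -0.42 in BxPC-3 and -0.94 in AsPC-1, and the median difference was 0.56, and 0.77 without that array. KIF11, a motor of the mitotic spindle, went from 647, 448 and 435 to 256, 134 and 135 in AsPC-1 and from 488, 511 and 431 to 417, 305 and 359 in BxPC-3. Its PMA arrays were all below its untreated ones in both lines, and only the AsPC-1 fall of 1.57 was called (adjusted p = 0.00805). The difference was 1.16 ± 0.36 (adjusted p = 0.292) and 1.47 ± 0.26 without that array (adjusted p = 0.00601). PLK1, a mitotic kinase, differed by 1.42 ± 0.63 (adjusted p = 0.542) and by 1.97 ± 0.48 without it (adjusted p = 0.0359).

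**Figure D5:**
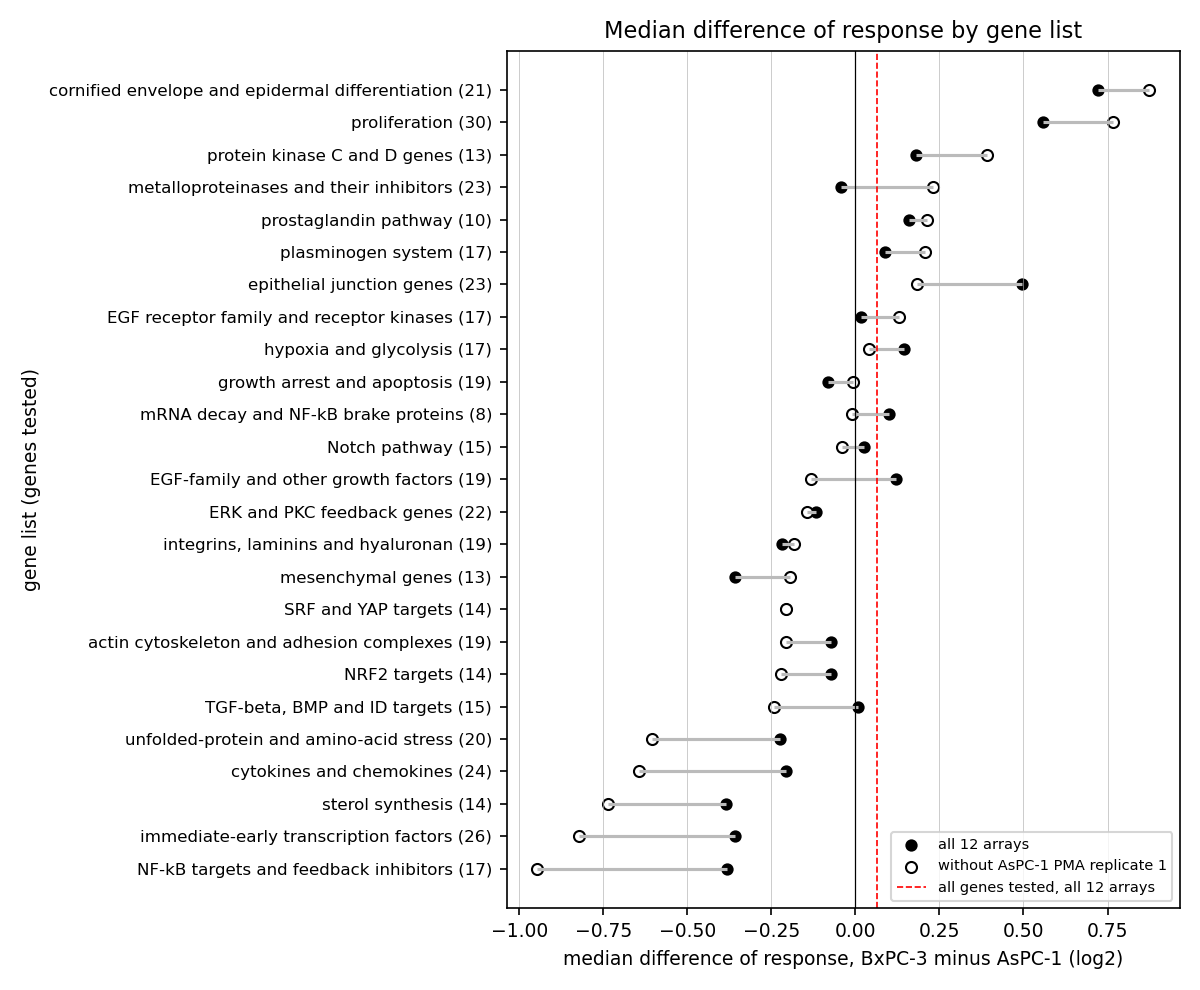
Median difference of response, BxPC-3 minus AsPC-1 (x axis, log2), of each of 25 gene lists with the number of genes tested in brackets, with all 12 arrays (filled) and without AsPC-1 PMA replicate 1 (open), and a dashed line at the median of all genes tested with all 12 arrays. The cornified envelope and proliferation lists lie highest, at 0.72 and 0.56, and the sterol, NF-kB, mesenchymal and immediate-early lists lowest, at -0.39, -0.38, -0.36 and -0.36.

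Several genes of the TGF-beta and BMP, mesenchymal, Notch and growth arrest lists changed their call with AsPC-1 PMA replicate 1. BMP4, a growth factor, was bright in untreated AsPC-1, at 1023, 319 and 276 untreated and 655, 6.73 and 29.9 with PMA, and never passed 6.77 in BxPC-3. Replicates 2 and 3 of AsPC-1 with PMA were low and replicate 1 was not. The difference was 2.42 ± 1.53 (adjusted p = 0.705) and 4.15 ± 0.78 without replicate 1 (adjusted p = 0.00953). SNAI2, a transcriptional repressor of epithelial genes, went from 718, 752 and 691 to 973, 2730 and 3085 in AsPC-1 and was at 932 to 1656 on the BxPC-3 arrays. It rose in AsPC-1 by 1.48 (adjusted p = 0.0497), and its difference was -1.42 ± 0.50 (adjusted p = 0.394) and -1.94 ± 0.29 without that array (adjusted p = 0.0022). It was the 1 call among 13 mesenchymal genes without that array (7.69%, against 4.43% of all genes). With all 12 arrays limma called 0 of them (1 higher and 3 lower at an unadjusted p under 0.05). LFNG, a glycosyltransferase that modifies Notch, differed by 1.35 ± 0.78 (adjusted p = 0.678) and by 2.11 ± 0.53 without that array (adjusted p = 0.0394), and fell in AsPC-1 by 2.39 (adjusted p = 0.0461). CDKN1B, the cell cycle inhibitor p27, had 0.98 ± 0.77 (adjusted p = 0.782) and 1.90 ± 0.29 without it (adjusted p = 0.00227), where it fell in both lines, by 1.05 and 2.95.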

How the data were processed

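The authors deposited signal intensity on a linear scale, made with MAS5 per the submitters' processing notes, for 54675 probe sets and 12 arrays (version not stated there). Arrays have no read depth. Values were turned into log2(signal + 3), where 3 is the rounded median of the arrays' 20th percentile of 2.71, with no further normalization. The 62 control probe sets and probe sets with several symbols (1801) or none (11721) were left out. Names came from the array's annotation table, and 41037 of 41091 probe sets with 1 symbol matched RefSeq genes. Each of 19775 genes was taken from its brightest probe set, and the 16099 above the array's 40th percentile on at least 3 arrays were tested. limma 3.58.1 (R 4.3.3) fitted 4 group means to all 12 arrays (8 residual degrees of freedom), with eBayes, trend and two-sided Benjamini-Hochberg adjusted p, threshold 0.05. Python 3.11.15 and matplotlib 3.10.9 drew the plots.

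The array number marks a shared passage of a line, per the labels. Deviations of same-passage arrays from their group means had an r of 0.411, 0.206 and 0.157 (AsPC-1) and of -0.0539, -0.126 and -0.0589 (BxPC-3). In 5 rounds of simulated data on these 16099 genes with 200 changed, the fit recovered 6.4% of 2-fold and 39.4% of 4-fold differences, and 5.76% of calls were false. The simulated noise was independent between arrays and had the same spread on each. It held neither the shared passages nor the outlying arrays, so these shares need not hold for the real calls. Named genes are the 12 largest called differences each way, up to 3 called members of each of 25 lists, genes called in opposite directions, and 14 chosen genes; CLDN23, ZNF750, MARVELD2, SPRR1A, CXCL16, IVL, TGM1, PRKCA, PRKCD, FOS, JUN, JUNB, ATF3, NR4A2 and genes with only a name given were added after their values were seen. The comparison, lists and rule were chosen with earlier results of these data known. Y-linked genes and XIST are not described. The alternatives varied scaling, pseudocount, filter, probe set choice, moderation, array weights, passage block and arrays left out.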

Additional observations from a re-analysis of the deposited data

Results flagged for a closer look

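The response to PMA differed between the lines, by the test of that difference in limma, for 79 genes with all 12 arrays. The 30 of them picked by the naming rule are given here with their difference of response (BxPC-3 minus AsPC-1, log2). Among genes of epithelial differentiation and junctions these were SPRR2B (5.63), GRHL3 (4.86), KRT23 (3.19) and OCLN (3.16). Proteases, secreted proteins and enzymes with the higher response in BxPC-3 were IL36G (3.52), TPSG1 (3.09), GALNT5 (3.02), ST14 (2.57), PTGS2 (2.32), FST (2.13) and MMP7 (1.41). Other genes with the higher response were MYRFL (4.50), LURAP1L (3.50), NCF1 (3.38), HMGN2P46 (3.32), C1orf74 (2.90), MARCKSL1 (2.59) and PMAIP1 (1.32). Receptors, proteases and inhibitors with the lower response in BxPC-3 were ACKR3 (-4.47), MMP1 (-4.30), PI3 (-3.0) and ITGA5 (-2.57). The signalling genes VAV3 (-3.46), DLL1 (-2.79), EPN3 (-2.70) and SHISA3 (-2.63) and the nuclear factors ZNF18 (-3.15), MN1 (-2.97), SERTAD4 (-2.55) and SOX2 (-2.39) were lower as well.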

How the results depend on the processing

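The 79 calls became 61 with median centring, 70 with quantile normalization, 66 with a pseudocount of 1, 64 with no filter, 82 with a 60th percentile filter, 78 with the mean over probe sets, 56 with probe sets free of an s or x mark, 57 without trend and 76 with robust eBayes. They became 109 with a pseudocount of 16 (45 lower in BxPC-3), 159 with 50 (91 higher and 68 lower), 960 with array weights (538 and 422) and 1187 with both AsPC-1 passage 8 arrays left out (664 and 523). With the passage block they became 126 (55 lower), and 28 of the 30 called genes picked by the naming rule kept the call. Leaving out 1 array gave 9 to 713 calls, 7 to 409 higher and 2 to 304 lower. The share of calls with the higher response in BxPC-3 was 55.7% after median centring and 65.7% after quantile normalization. List counts moved too. The 4 calls of the cornified envelope list became 2 with median centring and 3 with quantile normalization, and its 8 calls in the reduced fit became 5 with either. In the reduced fit the 8 higher and 1 lower calls of the junction list became 6 higher with median centring and 5 higher with quantile normalization, and 0 lower with either. Of 2078 values of single genes over the alternatives 1 was reversed, the uncalled CDKN1A at 0.13 without AsPC-1 untreated replicate 1; leaving out 1 array gave it -1.31 to 0.13. The cause of these changes was not tested. With 3 arrays a group, 2-fold differences in the simulated data were mostly below what the fit can call, and dim genes depend on the pseudocount.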
